A study of Mus musculus with 12 samples.

Results

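Described here are the 136 mouse genes whose symbols name subunits of potassium channels (Kcn), voltage-gated sodium channels (Scn), voltage-gated calcium channels (Cacn) or hyperpolarization-activated cation channels (Hcn). A rule on symbols picked them among protein-coding genes of GRCm38, out of 55487 gene identifiers measured. The set was chosen with earlier results of these data known. The set holds 92 potassium, 14 sodium, 26 calcium and 4 HCN channel genes. Laser microdissection of embryonic mouse cortex gave the dorsal ventricular zone whose RNA was measured, in 12 libraries that form 4 groups of 3. The E16.5 p18mKO2+ and E13.5 p18mKO2+ groups carry over-expression of p18, an inhibitor of cyclin-dependent kinases encoded by Cdkn2c, joined through a P2A peptide to the fluorescent protein mKO2. The E16.5 p18mKO2- and E13.5 p18mKO2- groups have the genotype given as normal. Tamoxifen was injected into the peritoneum in all 4 groups. The p18 cassette sits in ROSA26 behind a stop sequence between loxP sites and is switched on by Cre, with no driver named in the labels. The study's stated interest was the link between such inhibitors and the switch from neuron to astrocyte production. Its labels do not say whether the 3 libraries of a group are separate embryos, so every p-value rests on variation among libraries of a group, some of which may be technical.

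Ion channels of these families set the resting potential and carry the action potential. Sodium channels depolarize the membrane, calcium channels couple depolarization to calcium entry, and potassium channels repolarize it or hold it at rest, while HCN channels pass a slow inward current on hyperpolarization. Pore-forming subunits work with auxiliary subunits that govern their traffic to the membrane and their gating. Radial glia, the progenitors of the ventricular zone, are known for a high resting potassium conductance, and most voltage-gated sodium channels are known as genes of neurons.

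Each library held between 17101971 and 21837088 estimated counts. Radial glia markers and pan-neuronal markers were both abundant in each library, so the dissected tissue also held neuronal RNA. In such bulk samples, fewer cells of a type and less RNA per cell cannot be told apart. On counts Cdkn2c missed the threshold of 0.05 at both stages, with adjusted p = 0.798 at E13.5 and adjusted p = 1.00 at E16.5 (edgeR), and its CPM (counts scaled to TMM-adjusted library size) overlapped between p18mKO2+ and p18mKO2- at both stages. In the deposited TPM, a level adjusted for transcript length, its groups did not overlap, at 32.1 to 43.6 TPM in p18mKO2+ against 13.7 to 28.7 TPM in p18mKO2- at E16.5 and 27.7 to 32.6 TPM in p18mKO2+ against 16.1 to 26.5 TPM in p18mKO2- at E13.5. Over 12196 genes the median of TPM relative to CPM was itself higher in p18mKO2+, by 0.27 (log2) at E16.5 and 0.17 at E13.5. The part of this shift in the TPM ranges of Cdkn2c was not tested. In 2 libraries, replicate 3 of each p18mKO2+ group, both Xist and Y-linked transcripts were present. Each of the 3 E13.5 p18mKO2- libraries had Xist with almost no Y-linked RNA, and E13.5 p18mKO2+ replicate 2 had the reverse. Counts of a ribosomal RNA gene, CT010467.1, were 1.66% to 15.2% of the TMM-adjusted library size. This ribosomal RNA share is not a percent of the total counts. At E16.5 the share was 1.66% to 3.96% in p18mKO2+ and 7.06% to 15.2% in p18mKO2-, without overlap. At E13.5 the share was 2.62% to 6.58% in p18mKO2+ and 5.24% to 8.80% in p18mKO2-.

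Most of the channel genes were expressed at low level. Averaged over the 12 libraries, 85 of the 136 reached 1 TPM, 28 reached 10 TPM, and 8 potassium channel genes had no count in any library. The filter on low counts kept 106 genes for testing, namely 70 potassium, 10 sodium, 22 calcium and 4 HCN channel genes. None of the 30 left out averaged above 0.328 TPM.

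The highest levels belonged to auxiliary subunits of calcium channels. On the TPM scale, averaged over 12 libraries, Cacnb3, an intracellular β subunit that brings calcium channels to the membrane, stood at 112 TPM. Cacng7 and Cacng4, relatives of the calcium channel γ subunit that regulate AMPA receptors, stood at 108 and 96.5 TPM. Among α2δ subunits Cacna2d1 led with 36.5 TPM, and Scn3b led the sodium channel β subunits with 32.5 TPM. Among the highest pore subunits were Kcnn2, a small-conductance calcium-activated channel, at 31.6 TPM, Kcnk2, a mechanically and lipid-gated leak channel, at 30.7 TPM, and Cacna1h, a low-voltage-activated T-type calcium channel, at 29.9 TPM. In the other families the leading member reached 21.9 TPM for Kcnip1 among potassium channel auxiliary subunits and 18 TPM for Hcn3 among HCN channels. The leader had 17.6 TPM for Scn8a among sodium pores, 14.9 TPM for Kcnj11 among inward rectifiers and 13.1 TPM for Kcnd3 among the Kv pores of the shaker, shab, shaw and shal groups. The lowest leaders were Kcng1, a silent subunit that joins other Kv pores, at 8.70 TPM, and Kcnh7, an ERG-type pore, at 8.33 TPM.

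Summed over a class, channel RNA had its lowest mean in the E13.5 p18mKO2- libraries. The 92 potassium channel genes summed to 1314, 1198 and 1189.8 CPM in the E16.5 p18mKO2+ libraries, against 1304, 1172 and 1349.5 CPM in the E16.5 p18mKO2- libraries. They summed to 1051, 914 and 1099.7 CPM in the E13.5 p18mKO2+ libraries, against 560.0, 496 and 553 CPM in the E13.5 p18mKO2- libraries. The potassium sums of the E13.5 groups did not overlap, and those of the E16.5 groups did. Sodium channel genes summed to 329.9, 315 and 374 CPM in E16.5 p18mKO2+, against 316, 302 and 582 CPM in E16.5 p18mKO2-. At E13.5 they summed to 225, 177 and 462 CPM in p18mKO2+, against 149, 139 and 183 CPM in p18mKO2-. Both pairs overlapped, and replicate 3 of E13.5 p18mKO2+ and of E16.5 p18mKO2- stood well above the others of their groups. Calcium channel genes summed to 1288, 1245 and 1223 CPM in E16.5 p18mKO2+, against 1267, 1126 and 1574 CPM in E16.5 p18mKO2-. At E13.5 their sums were 988, 889.9 and 1368 CPM in p18mKO2+, against 824, 678 and 897 CPM in p18mKO2-. The calcium sums of p18mKO2+ and p18mKO2- overlapped at both stages, and the same pair of libraries was highest. HCN channel genes summed to 76.4, 70.6 and 68.5 CPM in E16.5 p18mKO2+, against 70.7, 63.3 and 78.4 CPM in E16.5 p18mKO2-. At E13.5 the HCN sums were 40.8, 36.7 and 72.0 CPM in p18mKO2+, against 32.4, 34.2 and 33.1 CPM in p18mKO2-. The HCN sums overlapped at E16.5 and not at E13.5.

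**Figure D1:**
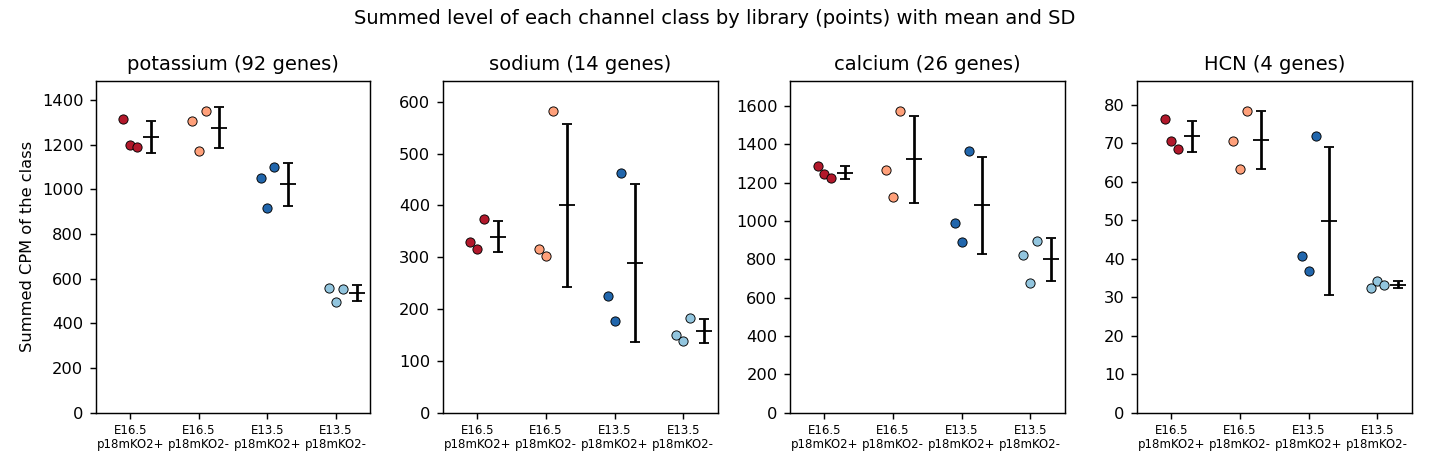
Summed CPM of the potassium, sodium, calcium and HCN channel genes (vertical axes) in each of the 12 libraries (points), by group, with the mean and SD of the 3 libraries as bars. The E13.5 p18mKO2- libraries have the lowest mean in all 4 panels, and E13.5 p18mKO2+ replicate 3 and E16.5 p18mKO2- replicate 3 stand high in the sodium and calcium panels.

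The first comparison asked which channel genes differ with p18 over-expression at E13.5. Nearly all calls lay in 1 direction: 32 channel genes were higher and 1 was lower in E13.5 p18mKO2+ than in E13.5 p18mKO2- libraries (edgeR quasi-likelihood test, Benjamini-Hochberg adjusted p under 0.05 over 16798 genes). Of the 70 tested potassium channel genes 18 were higher and 1 lower. Of the 10 sodium, 22 calcium and 4 HCN channel genes 3, 10 and 1 were higher. Across all tested genes 10.8% were called, 7.29% higher and 3.49% lower. The median log2 change was 0.81 for tested potassium, 1.12 for sodium, 0.86 for calcium and 1.16 for HCN channel genes, and 0.01 for all tested genes. Without E13.5 p18mKO2+ replicate 3 the median was 0.47 for sodium, 0.53 for calcium and 0.59 for HCN channel genes, and was 0.72 for potassium channel genes. With the ribosomal RNA covariate it was 0.60 for sodium and 0.68 for HCN channel genes. Without E13.5 p18mKO2+ replicate 1 the count of channel genes called was 21, without E13.5 p18mKO2+ replicate 3 it was 20, and without E13.5 p18mKO2- replicate 2 it was 20. Without both libraries that hold transcripts of both sexes it was 17, and with Y-linked RNA or the ribosomal RNA share as a covariate it was 19. Over all genes 1810 were called, against 927, 933, 1140 and 796 in the 4 fits with libraries left out and 957 and 729 with the covariates. Of the 33 calls, 15 held with each of the 12 libraries left out in turn.

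**Figure D2:**
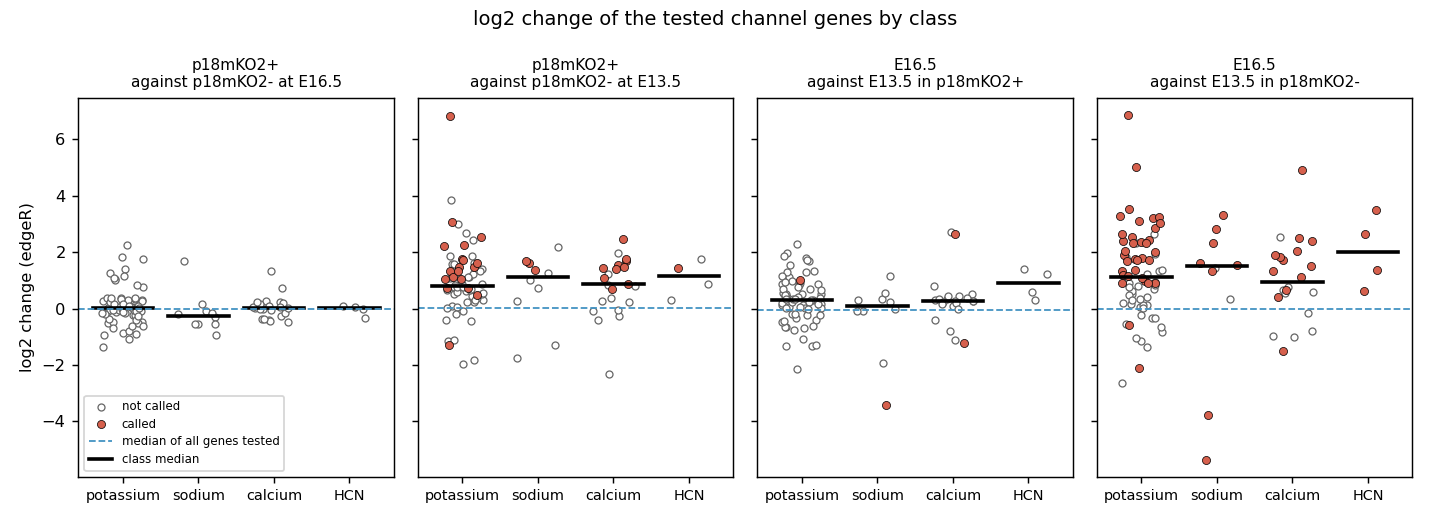
The log2 change of each tested channel gene (vertical axis, edgeR) by class (horizontal axis) in 4 comparisons. Filled red points are called genes, black bars the class medians and the dashed line the median of all tested genes. At E13.5 the class medians lie between 0.81 and 1.16, while at E16.5 no point is called, as for 0% of all tested genes.

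Among voltage-gated potassium pores Kcnq3, a subunit of the M-channel that restrains repeated firing, had the smallest p of all channel genes. At E16.5 Kcnq3 had 129, 113 and 107 CPM in p18mKO2+ libraries, against 145, 128 and 119.5 CPM in p18mKO2- libraries. Kcnq3 at E13.5 had 116, 109.8 and 85.0 CPM in p18mKO2+ libraries, against 20.9, 10.6 and 22.3 CPM in p18mKO2- libraries. The E13.5 groups lay far apart, and the E16.5 groups overlapped. The E13.5 log2 change was 2.53 ± 0.23 (SE) with adjusted p = 4.24e-05 (edgeR). Kcnc1, a shaw-type pore that repolarizes fast-spiking neurons, was likewise lowest in the E13.5 p18mKO2- libraries. At E16.5 Kcnc1 had 51.6, 42.5 and 39.2 CPM in p18mKO2+ libraries, against 50.2, 37.8 and 36.6 CPM in p18mKO2- libraries. Kcnc1 at E13.5 had 26.3, 24.9 and 40.7 CPM in p18mKO2+ libraries, against 11.7, 11.8 and 9.77 CPM in p18mKO2- libraries. Its E13.5 groups did not overlap, and E13.5 p18mKO2+ replicate 3 lay within the range of the E16.5 libraries. The log2 change was 1.46 ± 0.21 with adjusted p = 0.00108 (edgeR).

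Shaker-type pores called higher at E13.5 included Kcna6, Kcna1 and Kcna2. At E16.5 Kcna6 had 34.4, 27.9 and 20.3 CPM in p18mKO2+ libraries, against 28.4, 23.4 and 27.9 CPM in p18mKO2- libraries. Kcna6 at E13.5 had 12.99, 8.82 and 16.4 CPM in p18mKO2+ libraries, against 4.10, 1.41 and 2.69 CPM in p18mKO2- libraries. The E13.5 libraries formed separate ranges below those of E16.5. The log2 change at E13.5 was 2.21 ± 0.34 with adjusted p = 0.00153 (edgeR). The log2 changes of the others at E13.5 were 2.25 for Kcna1 and 1.34 for Kcna2. The call of Kcna2 was lost in 9 of the 12 leave-outs, with adjusted p up to 0.219 (edgeR) without E13.5 p18mKO2+ replicate 3, where its log2 change was 0.80. Of 15 tested pores of the shaker to shal groups, 5 were called, and their median log2 change was 1.03. None of the 7 tested pores of the EAG, ERG and ELK group was called, and Kcnh8, an ELK-type pore with the smallest p among them, had a log2 change of 1.21 ± 0.43 and adjusted p = 0.0927 (edgeR). Kcng1, a silent subunit that modifies shab-type pores, was called higher by 1.12 ± 0.31 on the log2 scale. Its call was lost in 4 leave-outs, with adjusted p up to 0.0871 (edgeR) without E13.5 p18mKO2+ replicate 1. Of the auxiliary subunits Kcnab1, an intracellular β subunit of shaker channels, was the 1 called of 12 tested, with a log2 change of 3.07 ± 0.64. It was a low gene, with 2.91, 3.38 and 3.33 CPM in E13.5 p18mKO2+ libraries, against 0.934, 0.163 and 0 CPM in E13.5 p18mKO2- libraries. Without E13.5 p18mKO2- replicate 1, the highest of its group, the fitted log2 change of Kcnab1 was 5.14, and its log2 difference of the p18 effect between stages, given with the other differences, was -5.40.

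Inward rectifiers and calcium-activated channels also held called genes. Kcnj3, a pore of the G-protein-gated inward rectifier that slows neurons after transmitter binding, had the smallest p among inward rectifiers. At E16.5 Kcnj3 had 23.4, 19.0 and 25.3 CPM in p18mKO2+ libraries, against 27.9, 27.2 and 41.3 CPM in p18mKO2- libraries. Kcnj3 at E13.5 had 14.2, 14.8 and 13.1 CPM in p18mKO2+ libraries, against 5.04, 4.67 and 5.56 CPM in p18mKO2- libraries. The E13.5 groups did not overlap, and neither did the E16.5 groups, where p18mKO2+ was the lower. Its log2 change at E13.5 was 1.46 ± 0.20 with adjusted p = 7.59e-04 (edgeR). Kcnj11, the pore of the ATP-sensitive channel, and Kcnj10, the glial inward rectifier that buffers potassium, were called higher by 1.78 ± 0.42 and 1.05 ± 0.29 on the log2 scale. Both calls were lost without certain single libraries: adjusted p reached 0.0677 for Kcnj11 without E13.5 p18mKO2- replicate 2, and 0.155 for Kcnj10 without E13.5 p18mKO2+ replicate 1 (edgeR). Kcnj12, a strong inward rectifier, had 46 counts over the E13.5 p18mKO2+ libraries and 0 over the E13.5 p18mKO2- libraries. Taking 3 counts over the group as the floor, it was at least 12.7-fold higher, and its call was lost in 10 leave-outs, with adjusted p up to 0.135 (edgeR) without E13.5 p18mKO2+ replicate 1. Among calcium-activated pores Kcnn3, a small-conductance channel, was called higher by 1.72 ± 0.28 on the log2 scale. The related Kcnn1 and the large-conductance pore Kcnma1 were called higher by 0.72 ± 0.20 and 1.62 ± 0.42. Kcnn1 lost its call in 7 leave-outs, with adjusted p up to 0.124 without E13.5 p18mKO2- replicate 2, and Kcnma1 in 3, with adjusted p up to 0.112 without E13.5 p18mKO2+ replicate 3 (edgeR).

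The leak channels with tandem pore domains were called in both directions, and they held the one channel gene called lower at E13.5. Kcnk5 is an alkaline-activated leak channel. At E16.5 Kcnk5 had 3.78, 4.22 and 3.92 CPM in p18mKO2+ libraries, against 5.59, 4.17 and 1.62 CPM in p18mKO2- libraries. Kcnk5 at E13.5 had 5.33, 7.45 and 7.43 CPM in p18mKO2+ libraries, against 16.4, 20.1 and 12.7 CPM in p18mKO2- libraries. Its E13.5 groups did not overlap. The log2 change at E13.5 was -1.28 ± 0.36 with adjusted p = 0.0340 (edgeR). The call was lost in 7 of 12 leave-outs, with adjusted p up to 0.139 (edgeR) without E13.5 p18mKO2+ replicate 1. Kcnk2 and its close relative Kcnk10 were called higher by 0.72 ± 0.19 and 0.49 ± 0.12 on the log2 scale. Each lost the call in 5 leave-outs, with adjusted p up to 0.0967 for Kcnk2 without E13.5 p18mKO2+ replicate 1 and 0.110 for Kcnk10 without E13.5 p18mKO2- replicate 1 (edgeR).

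The promoters of the potassium channel genes with the smallest p in each direction that had a listed window near their annotated start are printed to let the 2 directions be compared. They are Kcnj3, called higher (chr2:55435720-55436019, plus strand), and Kcnk5, called lower (chr14:20181733-20182032, minus strand), from RefSeq on GRCm38.p6, from 250 bases before to 50 after the start. Capitals mark the GC box GGGCGG on either strand.
Kcnj3: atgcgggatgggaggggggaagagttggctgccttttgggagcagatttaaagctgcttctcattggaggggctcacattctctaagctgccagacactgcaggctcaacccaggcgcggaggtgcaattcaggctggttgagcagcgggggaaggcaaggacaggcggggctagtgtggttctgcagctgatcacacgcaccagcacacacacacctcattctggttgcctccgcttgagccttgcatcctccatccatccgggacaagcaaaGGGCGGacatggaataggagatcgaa
Kcnk5: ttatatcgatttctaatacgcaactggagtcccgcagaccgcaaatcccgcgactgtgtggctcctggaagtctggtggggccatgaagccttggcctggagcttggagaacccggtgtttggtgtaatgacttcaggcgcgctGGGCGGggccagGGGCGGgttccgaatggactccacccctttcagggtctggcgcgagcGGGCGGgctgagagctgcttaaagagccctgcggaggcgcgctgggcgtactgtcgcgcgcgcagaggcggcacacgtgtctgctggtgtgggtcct
Kcnj3 held 1 GC box and Kcnk5 held 3, in windows of 57.7% and 63.7% G and C. Neither window held the E-box form, the TATA box or the cAMP response element whose letters are given with the motif shares.

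Of the 10 tested sodium channel genes 3 were called at E13.5, all higher in p18mKO2+. Scn3b, an auxiliary β subunit, had the smallest p. At E16.5 Scn3b had 99.8, 88.7 and 112 CPM in p18mKO2+ libraries, against 88.8, 92.8 and 139 CPM in p18mKO2- libraries. Scn3b at E13.5 had 63.0, 43.2 and 100.4 CPM in p18mKO2+ libraries, against 25.9, 16.98 and 20.9 CPM in p18mKO2- libraries. Each E13.5 p18mKO2+ library lay above each E13.5 p18mKO2- library. Its log2 change at E13.5 was 1.70 ± 0.28 with adjusted p = 0.00207 (edgeR). Scn2a is the main pore of the immature axon initial segment. At E16.5 Scn2a had 50.7, 36.9 and 54.4 CPM in p18mKO2+ libraries, against 52.4, 57.3 and 96.7 CPM in p18mKO2- libraries. Scn2a at E13.5 had 15.8, 9.96 and 37.9 CPM in p18mKO2+ libraries, against 6.90, 7.49 and 6.26 CPM in p18mKO2- libraries. The E13.5 ranges did not overlap, with replicate 3 of p18mKO2+ the highest library. The log2 change was 1.62 ± 0.40 with adjusted p = 0.0190 (edgeR). Without E13.5 p18mKO2+ replicate 3 the Scn2a change was 0.90 with adjusted p = 0.0860 (edgeR).

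Scn3a, the pore most typical of the embryonic brain, was the remaining sodium gene called. At E16.5 Scn3a had 75.1, 77.7 and 85.2 CPM in p18mKO2+ libraries, against 72.8, 63.2 and 138 CPM in p18mKO2- libraries. Scn3a at E13.5 had 54.2, 39.1 and 148 CPM in p18mKO2+ libraries, against 32.8, 32.8 and 28.3 CPM in p18mKO2- libraries. The E13.5 groups did not overlap, but replicate 3 of p18mKO2+ was far above the other libraries of its group. The log2 change at E13.5 was 1.37 ± 0.40 with adjusted p = 0.0432 (edgeR). Without that library it was 0.58 with adjusted p = 0.252 (edgeR). The same library had the highest pan-neuronal marker sum of its group, 7320 CPM with a group range of 4980 to 7320, whose part in the sodium channel values was not tested. The remaining sodium genes were not called. Among them the log2 changes at E13.5 were 0.27 for Scn8a, 0.75 for Scn1a, 1.00 for Scn9a, 1.25 for Scn2b and -1.74 for Scn11a. Scn8a is the pore of mature initial segments and nodes, Scn1a one prominent in inhibitory neurons, and Scn9a and Scn11a those of peripheral sensory neurons. Scn4a, Scn4b, Scn7a and Scn10a were too low to test, with highest levels of 0.0400, 0.180, 0.150 and 0.130 TPM in any library.

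The promoter of Scn2a is printed as that of the called sodium channel gene with the smallest p that had a window near its annotated start (chr2:65620519-65620818, GRCm38.p6, plus strand, RefSeq). Scn3b, with a smaller p, had no such window. Scn2a is also known as a target of the repressor Rest, which played no part in the choice. No letter is in capitals, since the GC box is not in this window.
Scn2a: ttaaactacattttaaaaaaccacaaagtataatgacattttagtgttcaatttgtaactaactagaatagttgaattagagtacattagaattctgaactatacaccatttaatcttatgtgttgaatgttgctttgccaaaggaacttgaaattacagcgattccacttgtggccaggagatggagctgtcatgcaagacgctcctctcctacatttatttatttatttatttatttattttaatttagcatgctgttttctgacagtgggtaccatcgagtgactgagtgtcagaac
The window was 33.0% G and C.

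Calcium channel genes gave 10 calls among 22 tested, all higher in E13.5 p18mKO2+. Of the 8 tested pores 5 were called. Cacna1e, the R-type pore, had the smallest p. At E16.5 Cacna1e had 120.1, 119.6 and 107 CPM in p18mKO2+ libraries, against 129.9, 136 and 209.9 CPM in p18mKO2- libraries. Cacna1e at E13.5 had 97.5, 72.1 and 102 CPM in p18mKO2+ libraries, against 27.7, 20.9 and 35.2 CPM in p18mKO2- libraries. The E13.5 groups were separate and the E13.5 p18mKO2+ libraries lay below every E16.5 library. Its log2 change at E13.5 was 1.69 ± 0.22 with adjusted p = 4.98e-04 (edgeR). Cacna1d is an L-type pore that opens at relatively negative potentials. At E16.5 Cacna1d had 37.0, 34.4 and 36.4 CPM in p18mKO2+ libraries, against 37.4, 34.8 and 66.1 CPM in p18mKO2- libraries. Cacna1d at E13.5 had 23.6, 21.4 and 30.8 CPM in p18mKO2+ libraries, against 7.27, 8.30 and 10.6 CPM in p18mKO2- libraries. Its E13.5 groups did not overlap either. The log2 change was 1.53 ± 0.25 with adjusted p = 0.00201 (edgeR). Called higher as well were Cacna1b, the N-type pore of synaptic terminals, Cacna1c, the other neuronal L-type pore, and Cacna1i, a neuronal T-type pore, with log2 changes of 1.45 for Cacna1b, 0.89 for Cacna1c and 1.48 for Cacna1i. Cacna1c lost its call without E13.5 p18mKO2+ replicate 3, with adjusted p = 0.0507, and Cacna1i without E13.5 p18mKO2+ replicate 1, with adjusted p = 0.0542 (edgeR).

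The auxiliary calcium channel genes called were Cacng5, Cacng8 and Cacng2, which escort AMPA receptors to synapses, and the β subunits Cacnb4 and Cacnb1. At E16.5 Cacng5 had 17.9, 12.6 and 13.6 CPM in p18mKO2+ libraries, against 14.8, 13.3 and 10.6 CPM in p18mKO2- libraries. Cacng5 at E13.5 had 1.36, 3.06 and 2.60 CPM in p18mKO2+ libraries, against 0.519, 0.271 and 0.468 CPM in p18mKO2- libraries. Cacng5 was below 1 CPM in the E13.5 p18mKO2- libraries, and all 3 E13.5 p18mKO2+ libraries exceeded them. The log2 change at E13.5 was 2.46 ± 0.38 with adjusted p = 0.00149 (edgeR). For the other 4 the log2 changes were 1.10 for Cacng8, 1.76 for Cacng2, 1.39 for Cacnb4 and 0.70 for Cacnb1. The calls of Cacng2 and Cacnb1 were each lost in 3 leave-outs, with adjusted p up to 0.131 and 0.105 (edgeR), both without E13.5 p18mKO2+ replicate 3. In that fit the log2 change was 1.00 for Cacng2 and 0.49 for Cacnb1. None of the 3 tested α2δ genes was called, and Cacna2d3 had the smallest p among them, with a log2 change of 1.24 ± 0.45 and adjusted p = 0.0984 (edgeR). The most abundant auxiliary genes were not called: the log2 changes were 0.28 for Cacnb3, 0.24 for Cacng4 and -0.07 for Cacng7.

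The Cacng5 promoter is printed as that of the calcium channel gene with the smallest p that had a window near its annotated start (chr11:107915006-107915305, GRCm38.p6, minus strand, RefSeq), with GC boxes in capitals, here read on the other strand.
Cacng5: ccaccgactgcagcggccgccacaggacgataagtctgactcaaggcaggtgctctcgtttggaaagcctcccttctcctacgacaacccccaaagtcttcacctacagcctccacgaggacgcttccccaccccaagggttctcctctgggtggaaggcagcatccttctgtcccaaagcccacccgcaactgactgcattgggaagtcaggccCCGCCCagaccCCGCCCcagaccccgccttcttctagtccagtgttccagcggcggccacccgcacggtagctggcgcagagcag
The window held 2 GC boxes and was 63.3% G and C.

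All 4 HCN channel genes had positive log2 changes at E13.5, and 1 was called. At E16.5 Hcn2 had 5.13, 5.90 and 4.33 CPM in p18mKO2+ libraries, against 4.05, 5.55 and 5.22 CPM in p18mKO2- libraries. Hcn2 at E13.5 had 1.84, 1.69 and 2.94 CPM in p18mKO2+ libraries, against 0.934, 0.434 and 0.994 CPM in p18mKO2- libraries. Hcn2 forms the slow pacemaker channel widespread in the brain. Its E13.5 groups did not overlap at a low level of expression. The log2 change was 1.45 ± 0.41 with adjusted p = 0.0384 (edgeR), and the call was lost in 8 of 12 leave-outs, with adjusted p up to 0.151 without E13.5 p18mKO2+ replicate 3. At E16.5 Hcn4 had 34.4, 32.4 and 25.1 CPM in p18mKO2+ libraries, against 30.0, 23.9 and 32.0 CPM in p18mKO2- libraries. Hcn4 at E13.5 had 16.3, 13.8 and 30.4 CPM in p18mKO2+ libraries, against 13.03, 13.4 and 6.73 CPM in p18mKO2- libraries. The E13.5 groups of Hcn4, the slowest-gating of the 4, did not overlap, though the lowest p18mKO2+ and the highest p18mKO2- library lay close together. The log2 changes at E13.5 were 0.87 for Hcn4 and 0.31 for Hcn3, with adjusted p of 0.0880 for Hcn4 and 0.392 for Hcn3 (edgeR). Hcn3, the most abundant HCN gene, had 22.8 ± 4.53 TPM in E16.5 p18mKO2+ and 20.2 ± 4.56 TPM in E16.5 p18mKO2-. At E13.5 it had 18.4 ± 8.88 TPM in p18mKO2+ and 10.8 ± 2.76 TPM in p18mKO2- (SD, n = 3 each). TPM relative to CPM was higher in p18mKO2+ over 12196 genes, by a median of 0.17 (log2) at E13.5 and 0.27 at E16.5. The log2 changes given are from counts.

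The Hcn2 promoter is printed as that of the called HCN gene (chr10:79716384-79716683, GRCm38.p6, plus strand, RefSeq), with GC boxes in capitals, read on the other strand.
Hcn2: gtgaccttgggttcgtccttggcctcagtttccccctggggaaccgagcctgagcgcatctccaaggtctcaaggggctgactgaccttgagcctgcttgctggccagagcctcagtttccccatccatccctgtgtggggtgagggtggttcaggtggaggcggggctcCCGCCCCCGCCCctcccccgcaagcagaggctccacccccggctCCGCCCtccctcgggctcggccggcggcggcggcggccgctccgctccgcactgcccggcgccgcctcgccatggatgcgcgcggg
The window held 3 GC boxes and was 72.3% G and C, the richest of the 5 printed.

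**Figure D3:**
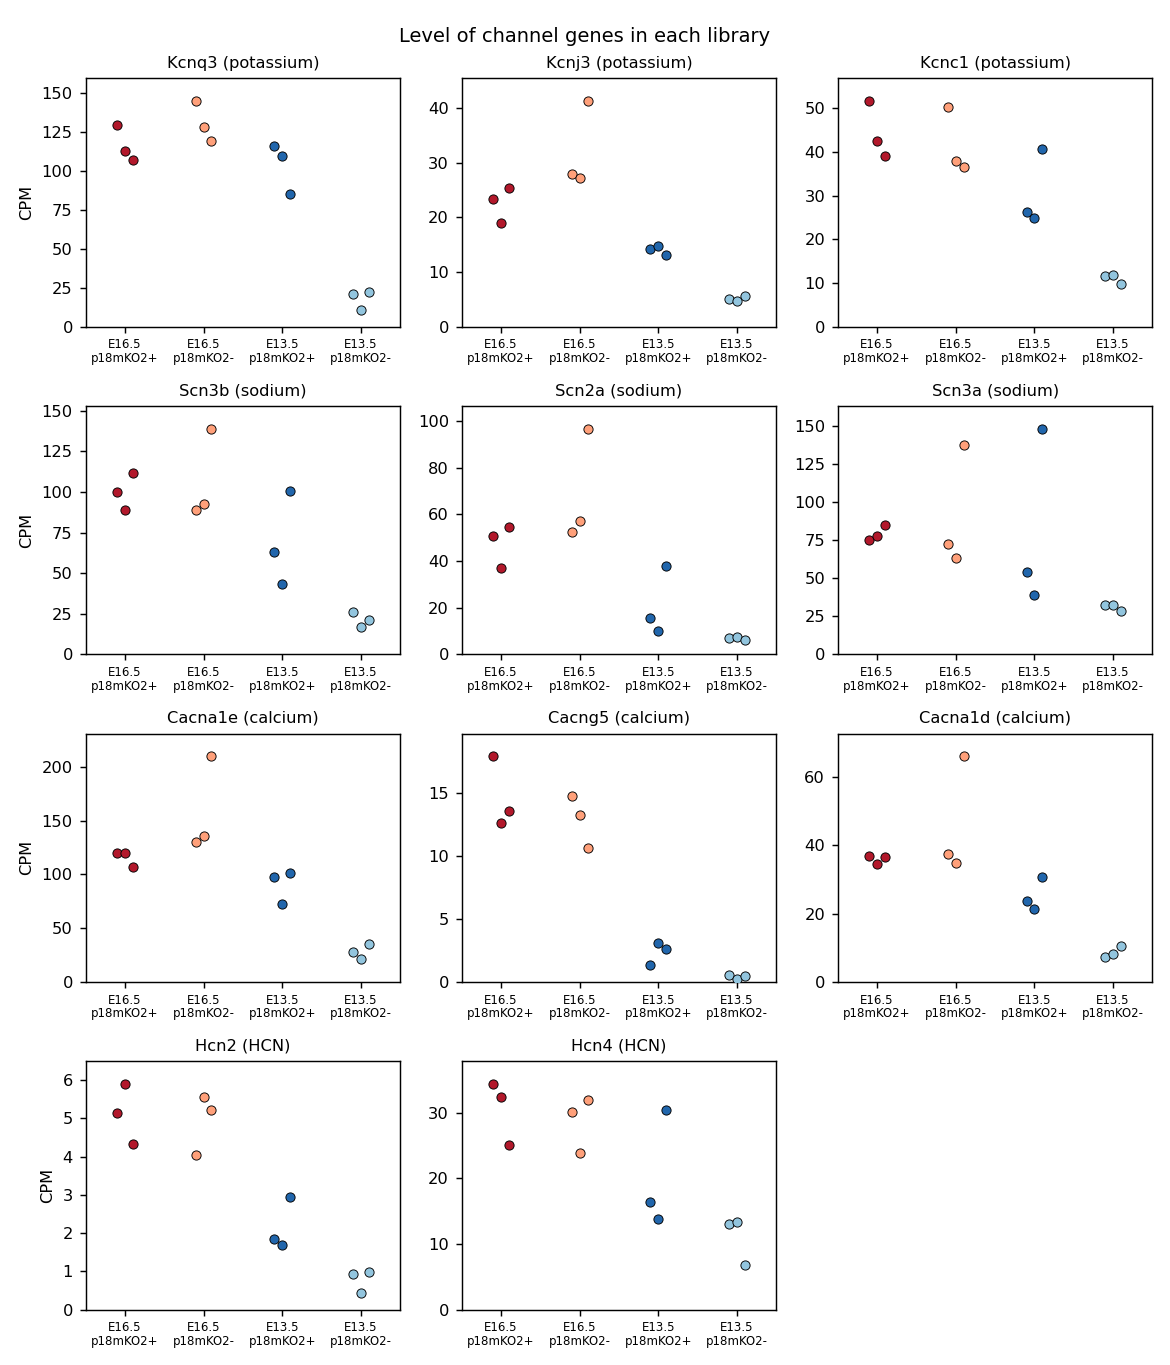
Level in CPM (vertical axes) of 2 or 3 genes of each class (rows) among those with the smallest p at E13.5, in each of the 12 libraries (points), by group. The E13.5 p18mKO2- libraries are lowest for each gene and lie apart from E13.5 p18mKO2+, and the E16.5 groups overlap for all but Kcnj3 and Cacna1e.

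RefSeq promoter windows were matched for 99 of the 136 genes, 24 of them called higher at E13.5. For each channel gene 1 window was used, that nearest its annotated start. The 32851 windows set beside them were not cut to 1 per gene, so the compared sets are unlike. The GC box GGGCGG was in 48 of the 99 windows (48.5%), and in 35.7% of all 32851 windows. The E-box form CAGATG was in 17 (17.2%), and in 17.2% of all windows. The TATA box TATAAA was in 4 (4.04%), and in 13.6% of all windows. The cAMP response element TGACGTCA, in 1.79% of all windows, was in none of the 99. The core of the Rest binding element RE1 was in 17 of all 32851 windows (0.0518%) and in none of the 99. A motif this rare would hardly be met in 99 windows, so its absence says nothing about Rest sites. Of the 24 called higher, 11 held the GC box, 2 CAGATG and 1 TATAAA. All motifs were searched on both strands and as exact letters. The median G and C content was 60.3% for the channel genes and 52.7% for all windows. A match says only that these letters are in the window.

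At E16.5 no channel gene was called between p18mKO2+ and p18mKO2-. The count was 0 by edgeR, DESeq2 and limma-voom, and 4 of 106 channel genes had an unadjusted p under 0.05 in edgeR. Across all genes 0% were called by edgeR, 426 genes had an unadjusted p under 0.05, and DESeq2 and limma-voom called 16 and 2. The median log2 change was 0.02 for potassium, -0.25 for sodium, 0.01 for calcium and 0.02 for HCN channel genes. With the ribosomal RNA covariate these medians were -0.39 for potassium, -1.19 for sodium, -0.75 for calcium and -0.81 for HCN channel genes, and 15 of the 106 had an unadjusted p under 0.05, with none called. The ribosomal RNA share did not overlap between the E16.5 groups, so this covariate and p18 cannot be told apart there. Without E16.5 p18mKO2- replicate 3 the sodium median was 0.19. In the fit with no covariate the genes with an unadjusted p under 0.05 were Kcnh4, an ELK-type pore, with a log2 change of 1.41 ± 0.52, Kcnj3 with -0.51 ± 0.19, Kcnt2, a sodium-activated pore, with -1.07 ± 0.42, and Cacna1e with -0.46 ± 0.21. Each had separate groups and an adjusted p of 1.00. These 4 were named after their values were seen, and their separate groups partly follow from choosing them by p. The p18mKO2+ libraries lay wholly above in 7 of the 106 channel genes and in 683 of all 16798 tested genes. They lay wholly below in 4 of the 106 and in 652 of the 16798. Kcnj3 and Cacna1e, higher in p18mKO2+ at E13.5, had lower values in p18mKO2+ at E16.5.

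Whether the p18 effect itself depended on stage was tested directly, as the effect at E16.5 minus that at E13.5. It was negative for all 13 channel genes called, of 106 tested, against 2.7% of all genes called in either direction (edgeR, adjusted p under 0.05). Most calls over all genes were also negative, with 2.4% of tested genes called lower and 0.298% called higher. Among them were the potassium channel genes Kcnq3, Kcnj3, Kcna1, Kcna6, Kcnc1, Kcnn3 and Kcnab1, with log2 differences of -2.69 for Kcnq3, -1.97 for Kcnj3, -3.11 for Kcna1, -2.16 for Kcna6, -1.37 for Kcnc1, -1.71 for Kcnn3 and -3.34 for Kcnab1. The 4 calcium channel genes had -2.15 for Cacna1e, -1.89 for Cacna1d, -1.77 for Cacnb4 and -2.27 for Cacng5, and the 1 sodium channel gene had -1.79 for Scn3b. Kcnq3 had the smallest adjusted p, 6.37e-04 (edgeR), with a standard error of 0.32. Scn2a missed the threshold, with a log2 difference of -2.16 ± 0.54 and adjusted p = 0.0517 (edgeR). The median difference was -0.80 for potassium, -1.40 for sodium, -0.93 for calcium, -1.08 for HCN channel genes and -0.03 for all tested genes. Without E13.5 p18mKO2+ replicate 3 it was -0.57 for sodium, -0.61 for calcium and -0.71 for HCN channel genes, and without E16.5 p18mKO2- replicate 3 it was -0.92 for sodium channel genes. Kcnq3, Kcnj3, Cacna1e and Cacna1d kept the call with each library left out in turn. The other 9 lost it in 3 to 10 of the 12 leave-outs, with the highest adjusted p between 0.0656 and 0.136 (edgeR), in each case without E16.5 p18mKO2+ replicate 2. The count was 4 without E16.5 p18mKO2+ replicate 2 and 4 without E16.5 p18mKO2+ replicate 3. It was 6 without E13.5 p18mKO2- replicate 2, 8 without E13.5 p18mKO2+ replicate 1, 8 without E16.5 p18mKO2- replicate 1, 9 without replicate 1 of E16.5 p18mKO2+, replicate 3 of E13.5 p18mKO2+ or replicate 2 of E16.5 p18mKO2-, and 3 without both libraries of both sexes.

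The stage comparison in p18mKO2- asked how channel expression changes in normal ventricular zone between E13.5 and E16.5. Of the 106 tested channel genes 55 were higher and 5 lower at E16.5, against 16.4% of all tested genes called higher, 13.4% called lower and 29.8% called in either direction (edgeR). By class 33 potassium, 6 sodium, 12 calcium and 4 HCN genes were higher, and 2 potassium, 2 sodium and 1 calcium gene were lower. Median log2 changes were 1.13 for potassium, 1.49 for sodium, 0.94 for calcium and 2.01 for HCN channel genes, against -0.02 for all tested genes. Of the 60 calls, 49 held with each library left out in turn. This comparison and the p18 comparison at E13.5 share the E13.5 p18mKO2- libraries, so their changes are given only side by side. The stage log2 changes in p18mKO2- were 2.66 ± 0.21 for Kcnj3, 2.86 ± 0.24 for Kcnq3 and 3.27 ± 0.35 for Kcna6, with adjusted p of 1.44e-06, 2.09e-06 and 1.75e-05 (edgeR). For the same 3 genes the p18 log2 changes at E13.5 were 1.46, 2.53 and 2.21.

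The called potassium genes among the 25 channel genes with the smallest p also included Kcnc1, Kcnab1, Kcnn3 and Kcnma1, with log2 changes of 1.90 for Kcnc1, 5.02 for Kcnab1, 2.05 for Kcnn3 and 2.42 for Kcnma1. Among potassium genes with no call for p18 at E13.5, several were called for stage. Kcnc2, a shaw-type pore, changed by 2.55 ± 0.40 on the log2 scale, Kcnq5, a further M-current subunit, by 3.05 ± 0.49, Kcnk1, a weakly rectifying leak channel, by 3.24 ± 0.55, and Kcnmb4, the neuronal β subunit of the large-conductance channel, by 1.38 ± 0.24. All 4 had higher E16.5 p18mKO2- than E13.5 p18mKO2- libraries without overlap, as did 3525 of the 16798 tested genes. These 4 were named from the called genes, so their separation partly follows from that choice. The p18 effect at E13.5 was 1.14 for Kcnc2, 0.56 for Kcnq5, 1.59 for Kcnk1 and 0.53 for Kcnmb4. Kcnk2 and Kcnk10 were called for stage by 1.69 ± 0.19 and 0.92 ± 0.12. Kcnj12 had 38 counts over the E16.5 p18mKO2- libraries and 0 over the E13.5 p18mKO2- libraries, at least 13.04-fold higher. The 2 potassium genes lower at E16.5 were Kcnk5, with a log2 change of -2.11 ± 0.37, and Kcnip1, a calcium sensor that modulates shal-type pores, with -0.59 ± 0.18. Kcnip1 lost the call in 2 leave-outs, with adjusted p up to 0.132 (edgeR) without E13.5 p18mKO2- replicate 1.

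Sodium channel genes were called in both directions for stage. In E16.5 p18mKO2- against E13.5 p18mKO2- the called increases included 3.32 for Scn2a, 2.33 for Scn3b, 1.62 for Scn1a, 1.54 for Scn3a and 1.32 for Scn2b on the log2 scale. Scn2b lost the call in 4 leave-outs, with adjusted p up to 0.0982 without E13.5 p18mKO2- replicate 2 (edgeR). The genes called lower at E16.5 included Scn11a, a pore known from sensory neurons. Scn11a had 3 counts over the E16.5 p18mKO2- libraries, against 142 counts over the E13.5 p18mKO2- libraries, a ratio of 0.0218 with an exact 95% interval of 0.00443 to 0.0649 that covers counting error only. Scn8a and Scn9a were not called, at 0.35 ± 0.32 and 1.45 ± 1.03.

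Of the calcium channel genes 12 were higher and 1 lower at E16.5 in p18mKO2-. The 3 with the smallest p in p18mKO2- were Cacng5, Cacna1e and Cacna1d, with log2 changes of 4.92 ± 0.39, 2.51 ± 0.23 and 2.40 ± 0.25 and adjusted p of 1.50e-06, 4.62e-06 and 1.57e-05 (edgeR). Further called increases were 2.03 for Cacnb4, 1.82 for Cacna1i, 1.74 for Cacna1b, 1.50 for Cacna1c, 1.35 for Cacng8 and 1.11 for Cacna1h. The T-type pores parted: Cacna1g was the 1 calcium gene called lower. At E16.5 Cacna1g had 13.7, 15.8 and 12.4 CPM in p18mKO2+ libraries, against 13.8, 13.7 and 13.7 CPM in p18mKO2- libraries. Cacna1g at E13.5 had 30.0, 17.9 and 49.7 CPM in p18mKO2+ libraries, against 37.2, 40.6 and 40.4 CPM in p18mKO2- libraries. The E13.5 p18mKO2- libraries were tightly grouped, E13.5 p18mKO2+ spread widely over and below them, and both E16.5 groups were lower. Its stage log2 change was -1.52 ± 0.28 in p18mKO2- with adjusted p = 9.34e-04 (edgeR), against 1.11 ± 0.26 for Cacna1h. All 4 HCN genes were called higher at E16.5 in p18mKO2-, with log2 changes that included 2.64 ± 0.42 for Hcn2, 1.37 ± 0.31 for Hcn4 and 0.62 ± 0.21 for Hcn3. The Hcn3 call was lost in 5 leave-outs, with adjusted p up to 0.126 (edgeR) without E13.5 p18mKO2- replicate 1.

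In p18mKO2+ the same stages differed at few channel genes. E16.5 against E13.5 gave 4 calls among 106 tested, against 1.64% of all tested genes (edgeR). They included Cacng5 and Kcnk2, higher at E16.5 by 2.65 ± 0.33 and 1.00 ± 0.19 on the log2 scale, and Cacna1g, lower with -1.22 ± 0.27. Adjusted p was 0.00128 for Cacng5, 0.0169 for Kcnk2 and 0.0422 for Cacna1g (edgeR). Cacng5 alone of the 4 kept the call with each library left out in turn. Kcnk2 and Cacna1g had adjusted p up to 0.0663 without E13.5 p18mKO2+ replicate 2 and 0.184 without E16.5 p18mKO2+ replicate 3 (edgeR). Without E13.5 p18mKO2+ replicate 3 the log2 change of Cacna1g was -0.75. The count was 1 without E16.5 p18mKO2+ replicate 1, and 2 without either of the other E16.5 p18mKO2+ libraries, without E13.5 p18mKO2+ replicate 1 or without E13.5 p18mKO2+ replicate 2. It was 7 without E16.5 p18mKO2- replicate 3 and 2 without both libraries of both sexes. The median log2 change was 0.32 for potassium, 0.11 for sodium, 0.27 for calcium and 0.92 for HCN channel genes, against -0.03 for all tested genes. Without E13.5 p18mKO2+ replicate 3 it was 0.63 for potassium, 0.87 for sodium and 0.56 for calcium channel genes. The sodium median turned negative without replicate 1 or replicate 2 of E13.5 p18mKO2+, at -0.09 and -0.18, and with the ribosomal RNA covariate, at -0.17. The calcium median was 0.13 without E13.5 p18mKO2+ replicate 2. Kcnq3 had a stage log2 change of 0.17 ± 0.22 in p18mKO2+ libraries, Kcnj3 of 0.68 ± 0.19 and Scn2a of 1.16 ± 0.38. The contrast between the stage changes of p18mKO2+ and p18mKO2- is the same as that between the p18 effects of E16.5 and E13.5, so the 13 calls hold for both.

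Shares of a pore family's summed TPM describe its make-up, and they are given as mean and range over 3 libraries, without a test. Among sodium pores Scn2a made up 20.9% (18 to 22.6) in E16.5 p18mKO2+ and 26.2% (23.6 to 30.0) in E16.5 p18mKO2-, and 11.4% (10.9 to 12.4) in E13.5 p18mKO2+ and 6.95% (6.12 to 8.60) in E13.5 p18mKO2-. Scn8a made up 31.8% (29.7 to 35.0) in E16.5 p18mKO2+ and 27.1% (26.6 to 28.1) in E16.5 p18mKO2-, and 42.5% (33.6 to 47.9) in E13.5 p18mKO2+ and 55.0% (44.5 to 60.6) in E13.5 p18mKO2-. The E13.5 groups overlapped in the share of Scn8a and not in that of Scn2a. Scn3a made up 35.2% (30.2 to 39.5) in E16.5 p18mKO2+ and 31.8% (29.2 to 36.7) in E16.5 p18mKO2-, and 33.5% (27.0 to 41.5) in E13.5 p18mKO2+ and 20.2% (15.1 to 29.5) in E13.5 p18mKO2-. The Scn8a share had its highest mean in E13.5 p18mKO2-, where the Scn3a and Scn2a shares had their lowest means.

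Among calcium pores Cacna1g, a T-type pore, made up 8.02% (4.54 to 10.0) in E16.5 p18mKO2+ and 7.52% (4.51 to 12.9) in E16.5 p18mKO2-. In E13.5 it made up 18.2% (16.1 to 19.5) in p18mKO2+ and 45.1% (41.2 to 48.9) in p18mKO2-. The E13.5 ranges lay far apart, and the E16.5 ranges overlapped below them both. The deposited length of Cacna1g, which enters TPM, averaged 3251 bases in E16.5 p18mKO2+ and 3396 in E16.5 p18mKO2-, and 2713 in E13.5 p18mKO2+ and 1887 in E13.5 p18mKO2-. With CPM divided by 1 length per gene, its mean over the 12 libraries, Cacna1g made up 18.4% (14.6 to 21.2) in E13.5 p18mKO2+ and 37.9% (32.7 to 43.4) in E13.5 p18mKO2-, and these ranges did not overlap either. In counts Cacna1g was not called for p18 at E13.5, with a log2 change of -0.28 ± 0.27 and overlapping groups. Among leak channels at E13.5 Kcnk5 made up 8.29% (5.66 to 10.1) in p18mKO2+ and 24.0% (22.8 to 25.7) in p18mKO2-, and Kcnk2 made up 43.9% (41.1 to 48.8) in p18mKO2+ and 34.8% (32.9 to 37.7) in p18mKO2-. Neither leak channel's share overlapped between the E13.5 groups. The median over 12196 genes of TPM relative to CPM was higher in p18mKO2+ than in p18mKO2- by 0.27 (log2) at E16.5 and by 0.17 at E13.5.

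**Figure D4:**
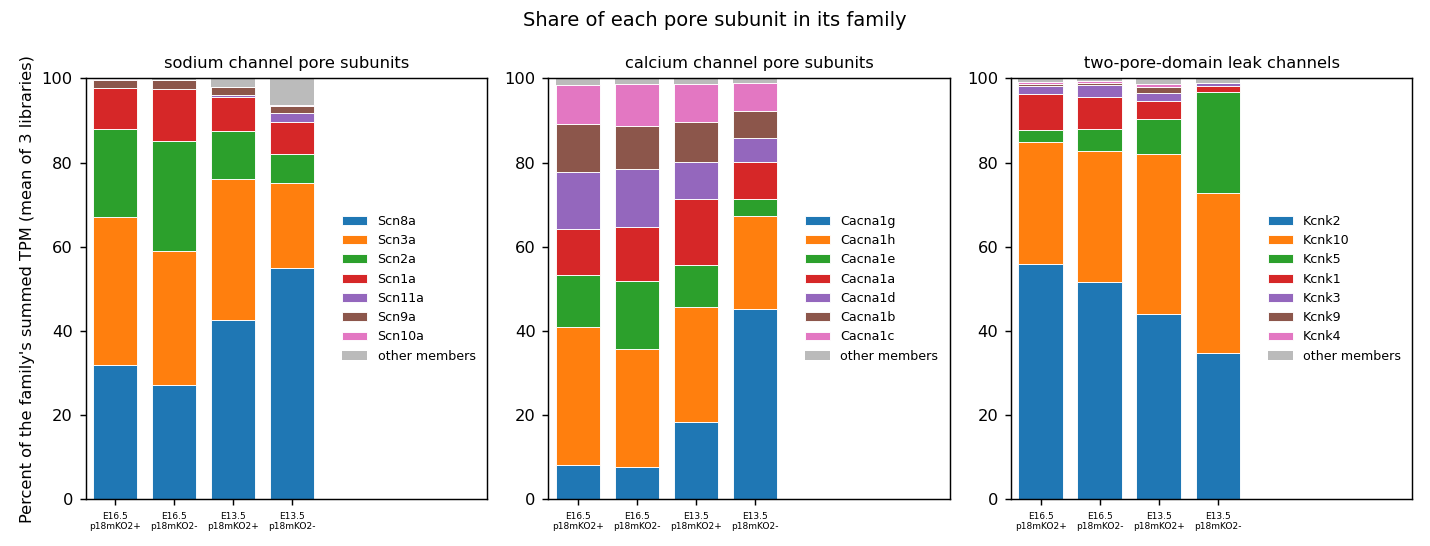
Mean percent of summed TPM that each pore subunit held in its family (vertical axis, 3 libraries a group) for sodium pores, calcium pores and leak channels with tandem pore domains. The Cacna1g segment takes 18.2% in E13.5 p18mKO2+ and 45.1% in E13.5 p18mKO2-.

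Genes that work with these channels were also called. Of 34 listed partners 33 were tested, and at E13.5 15 were called higher and 1 lower in p18mKO2+, with a median log2 change of 0.96. Across all tested genes 7.29% were called higher and 3.49% lower, with a median of 0.01. The partners were listed with earlier results of these data known. Ank3, the ankyrin that anchors sodium and M-current channels at the axon initial segment, changed by 1.27 ± 0.23 on the log2 scale, and Sptbn4, the spectrin beneath it, by 2.03 ± 0.48. Abcc8, the sulfonylurea receptor that surrounds the Kcnj11 pore, changed by 2.28 ± 0.42. Fgf11, Fgf12 and Fgf13, intracellular proteins that bind sodium channels, changed by 0.88, 1.51 and 0.67. Cntn2, which gathers shaker-type channels on axons, changed by 1.91 ± 0.32. The 1 partner called lower was Rest, a repressor of neuronal genes, with -0.71 ± 0.21 and adjusted p = 0.0454 (edgeR). At E16.5 none of the 33 was called between p18mKO2+ and p18mKO2-, where 0% of all 16798 tested genes were called. In the stage comparison 22 were called higher and 4 lower in p18mKO2-, Rest among the 4 by -1.25 ± 0.21, and 1 was called higher in p18mKO2+, Stac2, a modulator of L-type channels. Of all tested genes 16.4% were called higher and 13.4% lower in p18mKO2-, and 1.64% in either direction in p18mKO2+. For the stage dependence of the p18 effect 8 partners were called, all negative, against 2.4% of all tested genes called lower and 0.298% higher.

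Markers of neurons and of cell division also differed between the E13.5 groups. The 15 pan-neuronal markers summed to 7585 to 8363 CPM in E16.5 p18mKO2+ and 7422 to 10009.5 CPM in E16.5 p18mKO2-, and 4979.6 to 7320.0 CPM in E13.5 p18mKO2+ and 2842 to 3264 CPM in E13.5 p18mKO2-. For p18 at E13.5 8 of the 15 were called higher and none lower, and at E16.5 none was called. Over all tested genes 7.29% were called higher and 3.49% lower for p18 at E13.5, and 0% were called at E16.5. The 14 S phase and mitosis markers summed to 1313 to 1522 CPM in E16.5 p18mKO2+ and 976 to 1645 CPM in E16.5 p18mKO2-, and 1737 to 2383 CPM in E13.5 p18mKO2+ and 3574 to 3819.5 CPM in E13.5 p18mKO2-. For p18 at E13.5 10 of the 14 were called lower. The 11 radial glia markers summed to 2205 to 2375 CPM in E16.5 p18mKO2+ and 1994 to 2580.5 CPM in E16.5 p18mKO2-, and 1942 to 2580.1 CPM in E13.5 p18mKO2+ and 2766 to 3125 CPM in E13.5 p18mKO2-, with 1 called higher and 5 lower for p18 at E13.5. Neuronal sums were thus higher, and S phase, mitosis and radial glia sums lower, in each E13.5 p18mKO2+ than in each E13.5 p18mKO2- library. No marker in these 3 lists was at 0. Their part in the channel results was not tested.

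Markers of other tissue were present as well. Their calls stand beside 7.29% of all tested genes called higher and 3.49% called lower for p18 at E13.5, and 0% called at E16.5. The 10 markers of the ventral telencephalon summed to 410.0 to 619 CPM in E16.5 p18mKO2+ and 201 to 308 CPM in E16.5 p18mKO2-, and 537 to 762 CPM in E13.5 p18mKO2+ and 158 to 434 CPM in E13.5 p18mKO2-, and 2 were called higher for p18 at E13.5. Their p18mKO2+ and p18mKO2- ranges did not overlap at either stage. The 8 choroid plexus and hem markers summed to 312 to 1457 CPM in E16.5 p18mKO2+ and 178 to 459.7 CPM in E16.5 p18mKO2-, and 93.8 to 674 CPM in E13.5 p18mKO2+ and 43.1 to 423 CPM in E13.5 p18mKO2-, and none was called for p18. The 9 astrocyte markers summed to 367 to 422 CPM in E16.5 p18mKO2+ and 335 to 435 CPM in E16.5 p18mKO2-, and 381 to 439 CPM in E13.5 p18mKO2+ and 558 to 687 CPM in E13.5 p18mKO2-, with 2 called higher and 2 lower for p18 at E13.5 of 8 tested. The 12 endothelial and pericyte markers summed to 248 to 301 CPM in E16.5 p18mKO2+ and 258 to 278 CPM in E16.5 p18mKO2-, and 199 to 219 CPM in E13.5 p18mKO2+ and 130.1 to 191 CPM in E13.5 p18mKO2-, with 2 called higher for p18 at E13.5. Blood and immune cells were represented too. The 7 erythroid markers summed to 873 to 1199 CPM in E16.5 p18mKO2+ and 744 to 1221 CPM in E16.5 p18mKO2-, and 745 to 1169.7 CPM in E13.5 p18mKO2+ and 1442 to 1598 CPM in E13.5 p18mKO2-, with 2 called lower for p18 at E13.5, and the 8 microglial markers to 37.8 to 39.3 CPM in E16.5 p18mKO2+ and 31.7 to 52.8 CPM in E16.5 p18mKO2-, and 24.8 to 34.8 CPM in E13.5 p18mKO2+ and 27.0 to 30.5 CPM in E13.5 p18mKO2-, with none called for p18. No marker in these lists was at 0 in all libraries, and the part of these cells in the channel results was not tested.

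All 136 channel genes together summed to 2829 to 3009 CPM in E16.5 p18mKO2+, against 2663 to 3584 CPM in E16.5 p18mKO2-, and to 2018 to 3002 CPM in E13.5 p18mKO2+, against 1347 to 1666 CPM in E13.5 p18mKO2-. The highest E16.5 library for channel genes and for pan-neuronal markers was p18mKO2- replicate 3, and the highest E13.5 library for both was p18mKO2+ replicate 3, which is 1 of the 2 libraries with transcripts of both sexes.

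**Figure D5:**
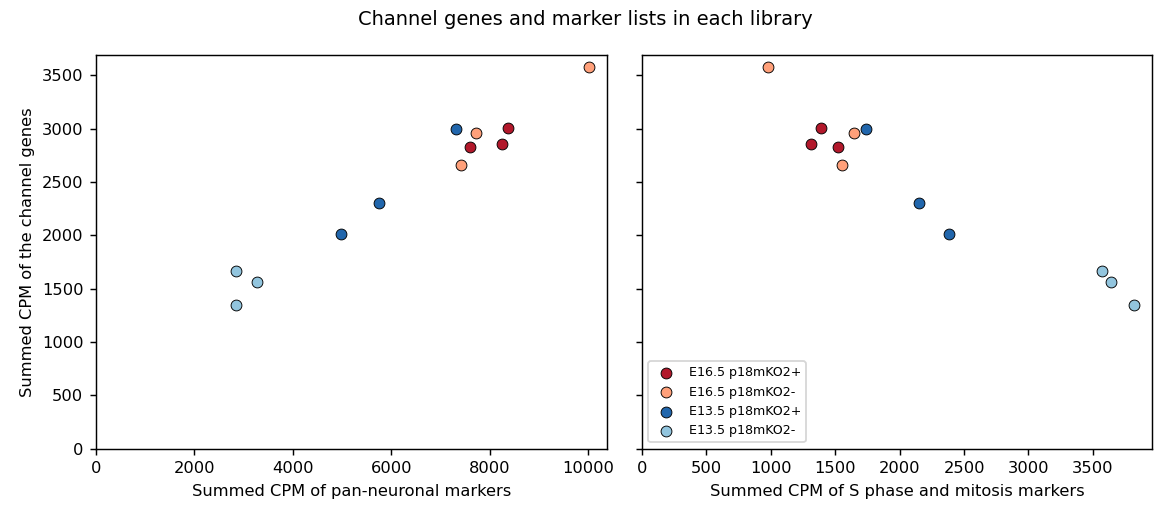
Summed CPM of the 136 channel genes (vertical axis) against the summed CPM of pan-neuronal markers (left) and of S phase and mitosis markers (right), 1 point per library, coloured by group. The E13.5 p18mKO2- libraries sit apart in both panels, at 2842 to 3264 CPM of pan-neuronal and 3574 to 3820 CPM of S phase and mitosis markers.

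Some channel genes share exonic bases with other annotated genes, and no source used here says how strand was handled in the counting, although the library kit was directional. Reads of Kcnq1 and Kcnq1ot1, Kcnj13 and Gigyf2, Kcnh7 and Gca, and Kcnip4 and 5730480H06Rik could therefore be shared, and values of these 4 channel genes are uncertain. None of these 4 was called in any comparison. Some called genes also share exonic bases with genes on the other strand. Kcnj3 shares 1621 bases with Gm26794, for which no level was found here. Kcnk2 shares 604 with A430027H14Rik, at a mean of 1.97 CPM, and Kcnmb4 shares 693 with Kcnmb4os2, at 1.89 CPM. The part of such overlaps in the called changes was not tested. Kcnj11, Kcnj12 and other called genes belong to families of related sequence, among which RSEM shares reads that map to more than 1 gene.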

How the data were processed

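RNA from 12 laser-cut samples was sequenced from libraries made with a directional kit from polyadenylated RNA, per the labels' protocols. Reads went through cutadapt 3.4, STAR 2.7.2b, RSEM 1.2.31 and the GRCm38 (mm10) build, per the submitters' processing notes. Neither the annotation release nor the strand setting was found in the labels. An expected count per gene was deposited by the authors, per the file headers, an RSEM estimate that splits ambiguous reads among genes and need not be whole, with TPM, which depends on the gene length estimated in each library. Gene lengths, also deposited by the authors, are in bases.

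The members and lists were chosen with earlier results of these data known. Identifiers were matched to symbols with GENCODE M21, where 55227 of 55487 were found. All 136 genes of the rule in that annotation were in the files. Expected counts were rounded, filtered with filterByExpr by group, TMM-scaled and tested in R 4.3.3 by the quasi-likelihood method of edgeR 4.0.16 with 1 mean per group over all 12 libraries, which left 8 residual degrees of freedom. The common biological coefficient of variation was 0.311. The p-values of 16798 genes were adjusted by the Benjamini-Hochberg method and called under 0.05. The SE is the absolute log2 change divided by the square root of F. CPM uses TMM-scaled library sizes. Total counts of 17101971 to 21837088 per library limit the precision for genes of few counts. Where a group had no count, its sum was set to 3 counts for the fold. The pipeline was tested on simulated counts.

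Replicate numbers were not shown to pair libraries. The fits were repeated with DESeq2 1.42.0, with limma-voom 3.58.1, with RLE size factors, without the filter or with a minimum mean CPM of 1, blocked by replicate number, on the 6 libraries compared, and with each library left out. Added after seeing the data were fits without both libraries of both sexes and with Y-linked or ribosomal RNA as a covariate, and shares from CPM over 1 length per gene. Named were, by rule, all sodium and HCN genes, up to 25 called genes with the smallest p in each comparison, and in each family the most abundant gene and that with the smallest p at E13.5. Some genes that the rule names are not reported here. Kcnn1, Kcna2 and Kcnj12, called at E13.5, and Kcnh4 and Kcnt2 fall outside the rule and were named after their values were seen. Promoter windows are from RefSeq (GRCm38.p6). Figures were drawn with matplotlib 3.10.9.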

Additional observations from a re-analysis of the deposited data

Results flagged for a closer look

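For 13 channel genes the p18 effect differed between E16.5 and E13.5 by a direct test of the difference (edgeR, adjusted p under 0.05 over all tested genes), and each difference was negative. Over all 16798 tested genes 2.7% were called for this difference, 2.4% lower and 0.298% higher. The log2 difference was -2.69 for Kcnq3, -3.11 for Kcna1, -2.16 for Kcna6, -1.37 for Kcnc1 and -3.34 for Kcnab1 among voltage-gated potassium genes, and -1.97 for Kcnj3 and -1.71 for Kcnn3 among inward rectifiers and calcium-activated channels. For calcium channel genes it was -2.15 for Cacna1e, -1.89 for Cacna1d, -1.77 for Cacnb4 and -2.27 for Cacng5, and for the sodium β subunit Scn3b it was -1.79. In each of the 13 the E13.5 p18mKO2+ libraries lay above all E13.5 p18mKO2- libraries, as they did in 2782 of the 16798 tested genes. The difference was computed from these same libraries, so this separation partly follows from how the 13 were chosen.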

How the results depend on the processing

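No called channel gene changed direction under any of 22 alternatives, of which 3 were chosen after seeing the data: leaving out both libraries with transcripts of both sexes, a Y-linked covariate and a ribosomal RNA covariate. For p18mKO2+ against p18mKO2- at E13.5, 33 channel genes were called. The count was 50 with no filter, 18 with the 6 libraries of the groups compared, 17 with both mixed-sex libraries left out, and 19 with either covariate. It ranged from 20 to 38 with 1 library left out. DESeq2 gave 49 and limma-voom 26. For E16.5 against E13.5 in p18mKO2+, 4 were called, against 16 with DESeq2, 14 with no filter, 8 with the 6 libraries compared and 2 without the libraries of both sexes, and 1 to 7 with 1 library left out. For the difference of the p18 effect, 13 were called, against 20 with DESeq2, 26 with no filter and 3 without the libraries of both sexes, and 4 to 15 with 1 library left out. A fit of 6 libraries cannot give that difference. The stage comparison in p18mKO2- kept 51 to 69 calls, against 60, and p18mKO2+ against p18mKO2- at E16.5 kept 0 under all 22 alternatives. Shares of 6 pores recomputed with 1 length per gene, chosen after seeing the data, moved by over 1 SD for Scn8a in E16.5 p18mKO2-, to 29.4%, and in E13.5 p18mKO2- for Cacna1g, to 37.9%, and Kcnk5, to 25.9%. The cause of these shifts was not tested.

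Replicate numbers are shared by the groups, but same-numbered libraries deviated together by a correlation of -0.0686 to 0.205, above 0.1 in all 3 pairs in no comparison, so the numbers are not taken as pairs. With the replicate number as a block the counts were 39 for p18 at E13.5, 0 at E16.5, 63 for stage in p18mKO2-, 8 for stage in p18mKO2+ and 17 for the difference. Genes of few counts are limited by depth: 30 channel genes were not tested.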
